A study of Mus musculus with 18 samples.

Results

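The comparison concerns the effect of tumour necrosis factor (TNF) on mouse neural stem cells that had been differentiating towards astrocytes for 24 h. It used 6 of the 18 RNA-seq libraries of the series, 3 from cultures differentiated for 24 h without TNF and 3 from cultures differentiated for 24 h with TNF at 50 ng/ml. The members were chosen by the time and treatment in the sample labels alone, and all genes of the count table were included. All 6 cultures came from neural stem cells of the ventricular zone of wild type C57BL/6J mouse brains at embryonic day 14, and the labels give a single brain for each preparation. The cells were grown as neurospheres (NSPs) with epidermal growth factor and were then plated on poly-L-ornithine in medium with fetal bovine serum, which the untreated cultures received as well. The remaining 12 libraries were from proliferating NSPs, from cultures at 72 h with and without TNF, and from untreated cultures at 1 week. They entered the estimate of the spread, and the 72 h cultures were used for a comparison of the 2 times. The labels do not say which animals or platings gave the 3 replicates of a group, so p-values measure the spread between these samples.

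TNF is a cytokine that binds the receptor TNFR1 and, through the adaptors TRADD, RIPK1 and TRAF2, activates the kinase complex that marks the inhibitor IκBα for degradation and so frees the transcription factor NF-κB. NF-κB induces its own inhibitors, which end the signal, together with chemokines, adhesion molecules and antigen presentation genes. In the brain, TNF is one of the signals under which astrocytes become reactive, a state known for new expression of acute-phase, complement and interferon-induced genes and for loss of some homeostatic genes.

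The 6 libraries held 12509693 to 17819701 counts assigned to genes, with a median of 14669803. Astrocyte genes were abundant in every library: *Slc1a3*, a glutamate transporter, stood at 2041 to 2958 CPM (the count of a gene relative to the scaled total count of its library) and *Gfap*, the intermediate filament of astrocytes, at 463 to 1871 CPM. TNF replicate 1 stood apart from the other 2 treated libraries. In it 932 of 16451 genes (5.67%) were at least 2-fold away from the mean of the other 2, against 1.17% and 0.973% for TNF replicates 2 and 3 and 0.0608% to 0.474% for the untreated libraries. Its nearest library by correlation of log2 CPM was TNF replicate 1 at 72 h (r = 0.982 across genes), above both libraries of its own group. Values without it are given below for calls that were lost and for folds that moved by over 1.5 times. RNA of *Xist*, which is made from the inactive X chromosome of female cells, was present in all 6 libraries at 1206 to 1892 CPM next to RNA of the Y-linked genes *Ddx3y*, *Eif2s3y*, *Kdm5d* and *Uty*. These 4 Y-linked genes ranged from 11.6 to 15.1 CPM in TNF replicate 1 and from 3.26 to 7.08 CPM in the other 5 libraries. How both came to be present in each library, given single brains in the labels, was not tested. The part of these differences between libraries in the results was not tested.

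With TNF, 703 of 20067 genes tested (3.5%) differed from the untreated cultures at an adjusted p under 0.05, of which 438 (2.18%) were higher and 265 (1.32%) lower. Changes of at least 2-fold made up 267 of the higher and 106 of the lower genes. Higher genes reached larger changes than lower genes, with log2 fold changes of 5.43 to 6.75 for the 8 leading genes with a mean of at least 1 CPM, whereas 11 of the 12 lower genes named below fell by 1.74 to 2.37 on the log2 scale. The median log2 fold change over all genes tested was -0.0052. Over all genes tested, 10.7% had every treated value above and 10.1% every treated value below all untreated ones, called or not. Among the called genes the groups lay apart in 99.9%, and this was a condition for the 12 largest changes in each direction. A lack of overlap therefore adds little to a call. Without TNF replicate 1 there were 474 calls (2.3%), 276 higher (1.34%) and 198 lower (0.961%), and 382 genes were called in the same direction in both fits, which is 54.3% of the first set and 80.6% of the second. Leaving out an untreated library lowered the number of calls as well, to 367, 360 and 364 without replicates 1, 2 and 3. In all 6 fits with 1 library left out, 183 higher and 84 lower genes were called. Among the genes named below, 51 of the 85 that were called kept their call in each of these 6 fits, and the others are marked as such. Of the 703 genes, 414 (58.9%) overlap another gene on either strand in the annotation, and since the strand setting of the counting is not given in the sources used here, reads of the overlapping partners cannot be told apart. This applies to *Ccl2*, *Cxcl10*, *Vcam1*, *Cp* and *B2m* among others.

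**Figure D1:**
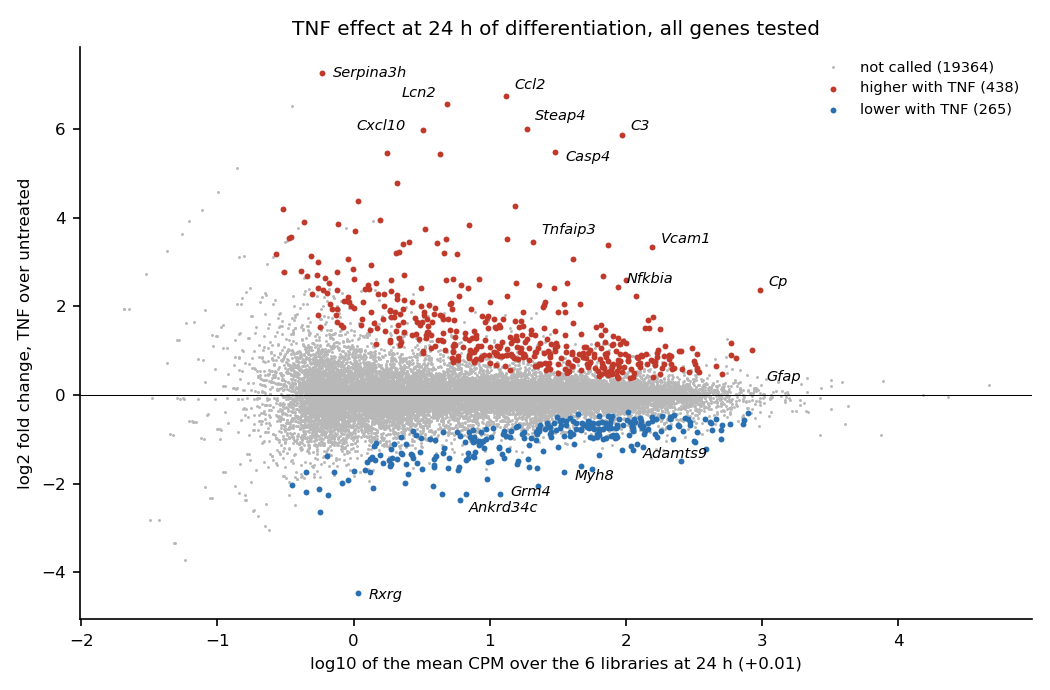
Log2 fold change (TNF over untreated, 24 h) against the log10 of the mean CPM over the 6 libraries, 1 point per gene tested; red points are the 438 genes called higher and blue points the 265 called lower. The red points reach log2 fold changes above 6 (*Ccl2*, *Lcn2*, *Steap4*), whereas the blue points, apart from *Rxrg*, stay above -3.

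The genes that carry and end the NF-κB signal were called higher as follows. Of 10 tested NF-κB subunits and inhibitors, 6 rose and none fell (median log2 fold change 0.67), and without TNF replicate 1 the number was 5. *Nfkbia*, which encodes the inhibitor IκBα, stood at 24.1, 30.4 and 27.9 CPM in the untreated and at 151, 135 and 161 CPM in the TNF libraries. The 3 treated libraries were close together and far above all untreated ones, with a fold change of 5.41 (log2 2.44 ± 0.17 SE, adjusted p = 6.87e-08). *Tnfaip3*, which encodes the ubiquitin-editing enzyme A20 that shuts off TNFR1 signalling, had 3.17, 3.69 and 3.67 CPM without and 39.2, 38.2 and 37.5 CPM with TNF. It was 10.9-fold higher (adjusted p = 3.5e-08), with nearly the same level in every treated library. *Relb*, a subunit of the non-canonical pathway, went from 4.31, 4.92 and 4.73 CPM to 33.4, 18.4 and 28.5 CPM and was 5.75-fold higher (adjusted p = 2.58e-06). The groups did not overlap for it either, though TNF replicate 2 was lower than the other treated libraries. Smaller increases were measured for the inhibitor *Nfkbie* (3.32-fold), for *Nfkbiz* (1.89-fold), a gene of the IκB family, and for the precursor subunit *Nfkb2* (2.22-fold). All 3 kept their call in each fit with 1 library left out. *Nfkb1* (1.34-fold, adjusted p = 0.0201) lost its call without TNF replicate 1 or any one untreated library, with adjusted p between 0.0776 and 0.126. *Rela*, the transactivating subunit, was at 28.5, 28.3 and 32.3 CPM without and 30.5, 29.1 and 37.9 CPM with TNF, a log2 difference of 0.13 ± 0.15 (adjusted p = 0.781).

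Upstream of NF-κB, 4 of 29 tested TNF receptor and proximal signalling genes rose (median log2 fold change 0.21), and none fell. Besides *Tnfaip3* these were the adaptor *Traf2* at 2.17-fold (adjusted p = 2.16e-05), the kinase *Map3k8* at 2.13-fold (adjusted p = 0.000408) and *Tnip1*, a partner of A20, at 1.56-fold (adjusted p = 0.0416). *Traf2* had 19.3, 21.1 and 18.6 CPM without and 44.6, 38.6 and 44.8 CPM with TNF, so that the 2 groups were well apart. The *Tnip1* call was lost without TNF replicate 1 or 3 or any one untreated library (adjusted p = 0.0559 to 0.228). The receptor gene *Tnfrsf1a* measured 26.5, 28.6 and 33.7 CPM without and 51.1, 35.4 and 42.5 CPM with TNF. All treated values were above all untreated ones, yet the difference did not pass the test (log2 0.54 ± 0.22, adjusted p = 0.235). *Tnfrsf1b*, the second receptor, was too low in counts to be tested.

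Some of the named genes carry matches to the letters that NF-κB is known to bind in the sequence before their transcription start. Of 63 named and called genes in the promoter table, 12 held a match to GGGNNNTTCC before their outermost RefSeq start. They were 12 of the 46 higher and 0 of the 17 lower genes. Other starts of these genes did not enter this count. *Traf2*, *Socs3*, *Irf1*, *C3* and *Lcn2* are among the higher genes without a match at that start. The 6 sequences shown were picked from the 12 because they hold a match, and they come from the NF-κB, chemokine, caspase and antigen presentation genes. Each line gives the 250 bases before the outermost RefSeq start on the gene's strand in build GRCm38.p6, with matches to GGGNNNTTCC on either strand in capitals. The positions are chr12:55492648-55492897 on the minus strand for *Nfkbia*, chr10:19015411-19015660 on the minus strand for *Tnfaip3*, chr19:46304487-46304736 on the plus strand for *Nfkb2*, chr5:92348890-92349139 on the minus strand for *Cxcl10*, chr9:5308599-5308848 on the plus strand for *Casp4* and chr2:122147437-122147686 on the plus strand for *B2m*.
Nfkbia: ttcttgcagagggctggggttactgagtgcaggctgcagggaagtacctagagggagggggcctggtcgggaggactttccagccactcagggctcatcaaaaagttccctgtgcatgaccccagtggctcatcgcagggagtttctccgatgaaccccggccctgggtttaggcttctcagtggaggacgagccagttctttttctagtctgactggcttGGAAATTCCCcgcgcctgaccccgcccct
Tnfaip3: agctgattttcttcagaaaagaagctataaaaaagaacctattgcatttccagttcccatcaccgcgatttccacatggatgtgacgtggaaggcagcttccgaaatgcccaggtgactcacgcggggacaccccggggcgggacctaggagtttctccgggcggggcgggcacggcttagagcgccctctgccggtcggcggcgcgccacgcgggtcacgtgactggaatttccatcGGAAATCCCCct
Nfkb2: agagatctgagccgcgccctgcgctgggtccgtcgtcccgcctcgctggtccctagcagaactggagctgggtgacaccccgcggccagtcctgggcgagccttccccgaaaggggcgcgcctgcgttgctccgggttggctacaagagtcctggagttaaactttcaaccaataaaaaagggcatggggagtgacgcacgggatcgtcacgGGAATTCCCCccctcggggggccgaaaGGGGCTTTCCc
Cxcl10: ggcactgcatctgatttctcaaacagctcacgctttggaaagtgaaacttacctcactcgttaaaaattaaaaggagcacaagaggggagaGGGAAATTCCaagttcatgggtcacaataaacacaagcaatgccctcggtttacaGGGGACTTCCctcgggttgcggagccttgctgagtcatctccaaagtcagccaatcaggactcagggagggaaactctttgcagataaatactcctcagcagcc
Casp4: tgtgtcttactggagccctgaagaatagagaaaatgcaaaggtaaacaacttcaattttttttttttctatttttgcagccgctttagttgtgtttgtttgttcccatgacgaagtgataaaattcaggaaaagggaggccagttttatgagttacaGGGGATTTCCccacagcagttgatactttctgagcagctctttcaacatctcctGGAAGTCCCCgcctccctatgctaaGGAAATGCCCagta
B2m: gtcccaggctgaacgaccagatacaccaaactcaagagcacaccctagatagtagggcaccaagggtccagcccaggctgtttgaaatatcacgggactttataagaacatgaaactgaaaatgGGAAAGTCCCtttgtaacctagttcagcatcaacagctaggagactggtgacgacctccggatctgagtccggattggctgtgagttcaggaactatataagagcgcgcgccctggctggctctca
The nearest match lies 29 bases before the start in *Nfkbia*, 12 in *Tnfaip3*, 11 in *Nfkb2*, 104 in *Cxcl10*, 14 in *Casp4* and 126 in *B2m*. The motif GGGNNNTTCC was present in 33 of 314 higher genes with a promoter in the table (10.5%), in 12 of 201 lower genes (5.97%) and in 649 of 11373 genes not called (5.71%). Of all 32851 promoters, 4.65% held it. In these shares and those that follow, a gene counts if any of its starts has a match. The share of all promoters is per promoter and includes genes not tested, so it is another measure than the shares of genes. The narrower GGGNNTTTCC, whose matches are all contained in those of the first motif, was found in 4.78% of higher, 0.995% of lower and 1.52% of other genes and in 1.41% of all promoters. With the loose form GGGNNNNNCC, which contains both, the shares were 65.6%, 67.2% and 64.3%, against 45.8% of all promoters. The interferon response motif GAAANNGAAA was found in 5.41% of higher, 3.98% of lower and 2.88% of other genes and in 2.98% of all promoters. All 4 motifs were searched on both strands and were chosen with the expression values known, so the shares are a description of these windows. *Ccl2*, *Relb*, *Vcam1* and *Nfkb1* are not in the promoter table.

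**Figure D2:**
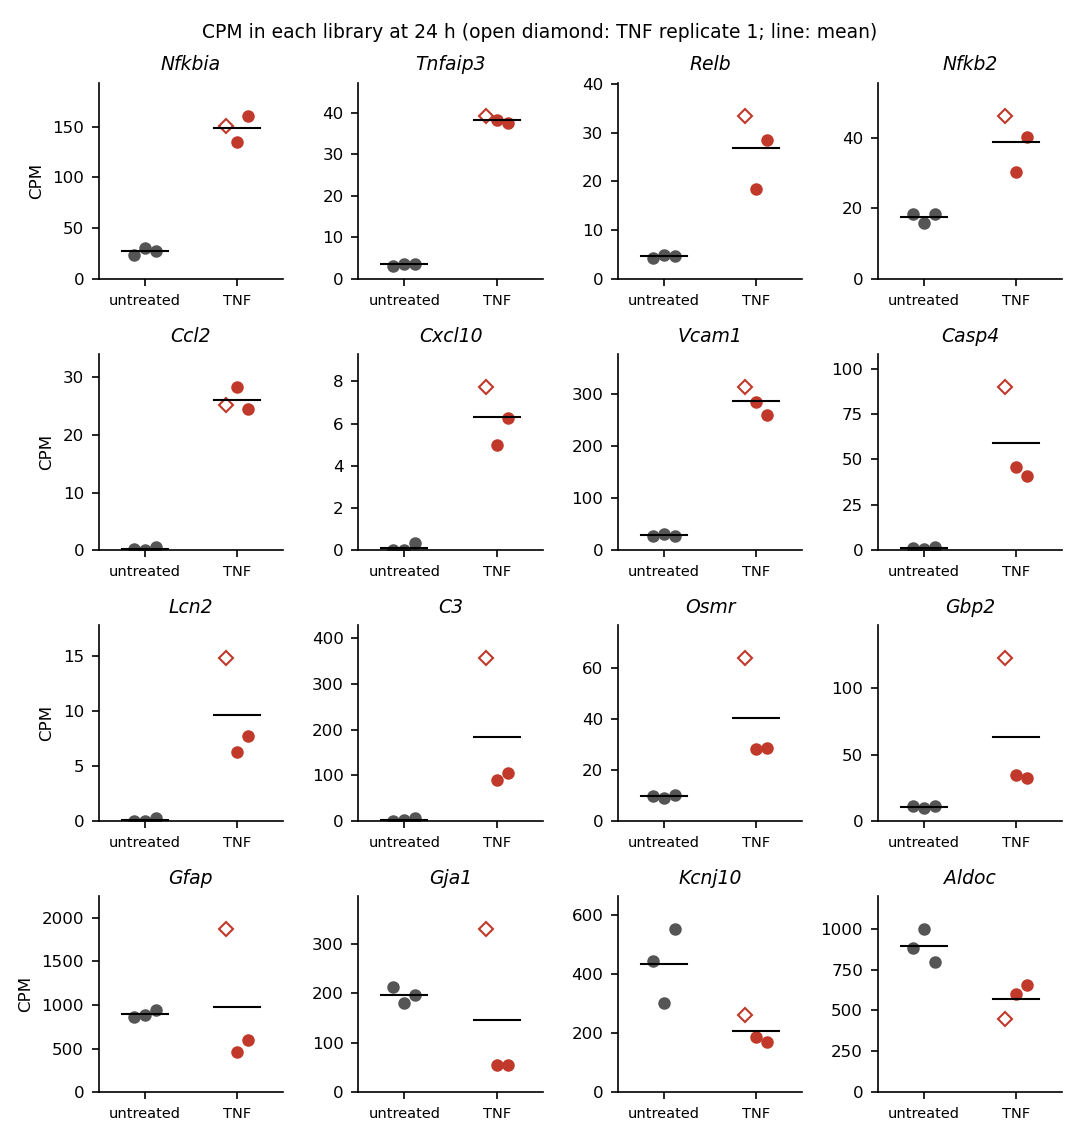
CPM in each of the 6 libraries for 16 genes, untreated in grey and TNF in red, with an open diamond for TNF replicate 1 and a line at the mean of each group. The treated libraries lie close together for *Nfkbia*, *Tnfaip3* and *Ccl2*, whereas for *C3*, *Gbp2*, *Gfap* and *Gja1* TNF replicate 1 lies far above the other 2 treated libraries.

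Chemokines showed some of the largest changes. Of 27 chemokine ligands on the list, 8 had enough counts to be tested and 3 of them rose (*Ccl2*, *Ccl7* and *Cxcl10*; median of the 8 log2 0.38). *Ccl2*, the main monocyte attractant, had 0.151, 0.112 and 0.489 CPM without TNF and 25.1, 28.3 and 24.5 CPM with it. It was near the detection limit in the untreated and uniformly high in the treated libraries, with a fold change of 108 (log2 6.75 ± 0.43, adjusted p = 3.5e-08). *Cxcl10*, which attracts T cells through CXCR3, was at 0, 0 and 0.326 CPM without and at 7.75, 5.00 and 6.25 CPM with TNF. All its treated values lay above the untreated ones (62.9-fold, adjusted p = 1.31e-05). The untreated value rests on 4 counts in untreated replicate 3. Without that library the untreated level was 0, and *Cxcl10* was at least 66.4-fold higher with TNF, taking 3 counts over the untreated group as the floor. The fold change of *Ccl2* was 188 without untreated replicate 3, and that of *Cxcl10* 38.3 without untreated replicate 2. *Ccl7*, a close relative of *Ccl2* next to it on chromosome 11, had 0, 1 and 2 counts without and 49, 48 and 60 counts with TNF, a ratio of 49.1 (95% counting interval 16.5 to 241), and its fitted fold change of 44.2 became 85.3 without untreated replicate 3. *Cx3cl1*, a membrane-bound ligand for microglia, was high already without TNF at 116, 128 and 133 CPM and measured 99.1, 227 and 263 CPM with it. TNF replicate 1 was here below the untreated libraries and the other 2 above them, so that the call depended on that library (adjusted p = 0.219 with it and 0.00521 without it, when the fold change was 1.92). *Ccl20* had no counts in the untreated libraries and 2, 5 and 10 counts with TNF, which was under the filter.

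Among 10 tested cytokines and colony-stimulating factors 3 rose (median log2 0.16), namely *Csf1*, *Tslp* and *Lif*. *Csf1*, the growth factor of microglia, stood at 109, 117 and 126 CPM without and 186, 200 and 217 CPM with TNF (1.71-fold, adjusted p = 0.000204). This was a small change with no overlap, at a high level in all libraries. *Tslp*, an epithelial-type cytokine of the interleukin-7 family, was at 0.605, 0.895 and 1.30 CPM without and at 29.5, 4.40 and 5.84 CPM with TNF. The increase was 14.2-fold (adjusted p = 0.000699), and 5.43-fold without TNF replicate 1, which was several times above the other treated libraries. *Lif*, a ligand of the gp130 receptor that drives astrocyte differentiation, was 4.28-fold higher (adjusted p = 0.0216) at a low level of 1.88 ± 1.15 CPM (SD, n = 3) with TNF, and its call was lost without TNF replicate 1, when it was 2.73-fold higher, or without any one untreated library (adjusted p = 0.0778 to 0.162). Of the adhesion molecules on the list, 1 of 8 tested rose (median log2 0.08). This was *Vcam1*, which binds leukocyte integrins, at 26.3, 30.6 and 27.5 CPM without and 313, 284 and 259 CPM with TNF. The treated libraries agreed closely (10.1-fold, log2 3.34 ± 0.23, adjusted p = 4.94e-08). *Icam1*, the other classical TNF-induced adhesion gene, had 0, 0 and 0 counts without and 3, 1 and 0 counts with TNF and was not tested, like *Sele* with 0 counts without and 5, 7 and 16 counts with TNF.

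In the gp130 and STAT3 axis, through which the interleukin-6 family acts on astrocytes, 5 of 15 tested genes rose and 1 fell (median log2 0.24). The receptor gene *Osmr*, for oncostatin M, had 10.1, 9.11 and 10.3 CPM without and 63.9, 28.2 and 28.7 CPM with TNF. All treated libraries were higher and TNF replicate 1 was the highest, with a fold change of 4.11 (adjusted p = 0.000453) and of 2.87 without that library. *Il6ra*, the interleukin-6 receptor, was at 0.378, 0.95 and 1.39 CPM without and 16.7, 4.03 and 4.13 CPM with TNF. Its 9.16-fold increase became 4.45-fold (adjusted p = 0.016) without TNF replicate 1. *Socs3*, the feedback inhibitor of the axis, was 2.17-fold higher (adjusted p = 0.00316), with 7.48, 7.55 and 7.41 CPM without and 13.8, 14.5 and 20.3 CPM with TNF. *Pim1*, a STAT3-induced kinase, was likewise 2.17-fold higher (adjusted p = 0.00661), and *Sbno2*, an astrocyte gene induced by interleukin-6, was 2.31-fold higher (adjusted p = 0.00617). *Cebpb*, an acute-phase transcription factor gene outside the list, was 2.99-fold higher (adjusted p = 0.00727), a call lost only without untreated replicate 3 among the fits with 1 library left out (adjusted p = 0.0501). *Lifr*, the receptor of leukaemia inhibitory factor, was the member that fell (log2 -0.62 ± 0.16, adjusted p = 0.0395). Its call was lost without TNF replicate 1 or any one untreated library (adjusted p = 0.0746 to 0.128).

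Genes known to mark reactive astrocytes fell into lists that differed in their counts. Of 13 pan-reactive genes, 7 rose and none fell, with a median log2 fold change of 2.04 that became 1.33 without TNF replicate 1, when 5 were called. *Lcn2*, which encodes the iron-carrier protein lipocalin 2, had 0, 0 and 0.326 CPM without and 14.8, 6.26 and 7.72 CPM with TNF. All treated libraries were above the untreated ones (95.1-fold, log2 6.57 ± 0.82, adjusted p = 0.000166), and the fold change was 68.5 without TNF replicate 1 and 58.0 without untreated replicate 2. Its untreated value rests on 4 counts in untreated replicate 3, and without that library *Lcn2* was at least 101-fold higher against the same floor of 3 counts. *Steap4*, a metalloreductase gene, had 0.151, 0.224 and 1.47 CPM without and 78.5, 15.2 and 17 CPM with TNF. It was 64.3-fold higher, and 27.7-fold without TNF replicate 1 (adjusted p = 9.03e-05) and 183-fold without untreated replicate 3. *Cp*, which encodes the ferroxidase ceruloplasmin, was abundant and even, with 321, 315 and 318 CPM without and 1894, 1612 and 1390 CPM with TNF (5.13-fold, adjusted p = 2.47e-07). The serpin gene *Serpina3n* (6.17-fold, adjusted p = 0.0113) and the sphingosine receptor gene *S1pr3* (4.25-fold, adjusted p = 0.0163) lost their calls without TNF replicate 1 (4.76- and 2.51-fold, adjusted p = 0.0556 and 0.137) and without untreated replicate 2 or 3, *Serpina3n* also without untreated replicate 1. *Serpina3n* belongs to a cluster of near-identical genes among which reads may be divided, and its paralog *Serpina3h*, chosen here after its values were seen, had 0 counts in every untreated library and 28, 12 and 14 counts with TNF. *Timp1*, often used as a pan-reactive marker, had 10 to 13 counts without and 7 to 21 counts with TNF (log2 -0.07 ± 0.52, adjusted p = 0.977). *Ptx3* had 0 counts without and at most 1 count per library with TNF.

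Of the genes associated with the A1 type of reactive astrocytes, 3 of 9 tested rose (median log2 0.25), which were *C3*, *Gbp2* and *H2-D1*. The complement gene *C3* had 1.21, 1.73 and 6.76 CPM without and 356, 89.6 and 104 CPM with TNF. The increase was 58.7-fold (adjusted p = 7.04e-06) with all libraries and 30.7-fold (adjusted p = 1.14e-06) without TNF replicate 1, in which *C3* was over 3 times as high as in the other treated libraries. It was 121-fold higher without untreated replicate 3, the highest of the untreated libraries. The interferon-induced GTPase gene *Gbp2* rose from 11.1, 10.3 and 11.7 CPM to 122, 35.0 and 32.5 CPM, which was 5.74-fold and became 3.02-fold without that library. Of 9 tested genes associated with the A2 type none was called, although 7 had positive log2 fold changes (median 0.50), among them *Cd109* with 409, 391 and 357 CPM without and 1023, 566 and 517 CPM with TNF (adjusted p = 0.0555). At an unadjusted p under 0.05 edgeR had 5 of the 9 higher, and DESeq2 called 1, which was *Cd109* (adjusted p = 0.0185).

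The 12 genes with the largest increases included further ones outside these lists or in a list described below. *Casp4*, which encodes the caspase that senses cytosolic lipopolysaccharide, had 1.28, 0.839 and 1.96 CPM without and 90.0, 46.1 and 40.6 CPM with TNF. All treated libraries were far above the untreated ones (44.5-fold, log2 5.48 ± 0.36, adjusted p = 3.5e-08). *Lbp*, whose product binds lipopolysaccharide, went from 1.06, 1.12 and 2.44 CPM to 64.0, 10.4 and 12.4 CPM. It was 19.2-fold higher, or 7.50-fold without TNF replicate 1 (adjusted p = 3.97e-06). Further genes of the 12 with the largest increases rested more on TNF replicate 1. The kinase gene *Mylk2* was 43.1-fold higher with it and 11-fold without it (adjusted p = 0.0581), the hyaluronan synthase gene *Has2* 27.3-fold and 5.89-fold (adjusted p = 0.358), and the xanthine dehydrogenase gene *Xdh* 15.5-fold and 9.28-fold (adjusted p = 0.0779). Without untreated replicate 3 the fold changes of *Mylk2* and *Has2* were 79.6 and 55.3, and that of *Has2* was 16.6 without untreated replicate 2. The calls of *Has2* and *Xdh* were also lost without any one untreated library, that of *Mylk2* without untreated replicate 1 or 2. *Adh7*, an alcohol dehydrogenase that acts on retinol, had 1, 2 and 1 counts without and 47, 25 and 23 counts with TNF, a ratio of 22.3 (95% counting interval 8.42 to 83.5).

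Of 17 tested genes of the MHC class I pathway, 9 rose and none fell, and 16 had positive log2 fold changes (median 0.80). Without TNF replicate 1 there were 5 calls and a median of 0.58. *B2m*, the invariant light chain, had 41.0, 51.3 and 34.2 CPM without and 95.6, 89.1 and 79.8 CPM with TNF. The groups did not overlap (2.09-fold, adjusted p = 0.00117). The heavy chain genes *H2-D1*, *H2-K1* and *H2-Q4* were 3.28-, 3.28- and 2.72-fold higher, and *H2-D1* went from 5.67, 3.80 and 5.62 CPM to 22.5, 11.9 and 14.8 CPM. These genes are highly similar to each other, so reads may be divided between them. *H2-K1* lost its call without TNF replicate 1 (2.03-fold, adjusted p = 0.0593) or untreated replicate 2 or 3 (adjusted p up to 0.0625). The immunoproteasome subunit gene *Psmb9* was 3.48-fold higher at about 1 CPM, and the peptide transporter gene *Tap1* 2.07-fold higher (adjusted p = 0.00432). The class I transactivator gene *Nlrc5* was 2.21-fold higher (adjusted p = 0.0106), without call when TNF replicate 1 or untreated replicate 2 was left out (adjusted p = 0.0726 and 0.0898).

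The interferon response list had 7 of 29 tested genes higher, none lower, 24 with positive log2 fold changes and a median of 0.63. Only 2 of these calls were made without TNF replicate 1, and 2 or 3 without an untreated library. The transcription factor gene *Irf1* stood at 10.7, 9.95 and 11.2 CPM without and 37.7, 24.8 and 25.3 CPM with TNF. It was higher in every treated library (2.75-fold, adjusted p = 7.26e-05) and kept its call in all fits with 1 library left out, as did *Gbp2*. The antiviral genes *Gbp3* (2.55-fold), *Gbp6* (6.06-fold), *Parp14* (2.90-fold), *Ddx58* (1.62-fold) and *Irgm1* (1.64-fold) lost their calls without TNF replicate 1, when the fold changes were 1.76, 2.23, 2.06, 1.60 and 1.39 (adjusted p = 0.0778, 0.219, 0.169, 0.0677 and 0.222). They were also lost without untreated replicate 1, except for *Gbp3* without untreated replicate 2 or 3, and for *Ddx58* without TNF replicate 2, with adjusted p of at most 0.222.

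Of 12 tested complement genes 3 rose (median log2 0.91). Besides *C3* these encode the proteases of the C1 complex, *C1s1* with 0.982, 1.17 and 1.96 CPM without and 12.8, 7.01 and 4.54 CPM with TNF (5.99-fold, adjusted p = 0.000408), and *C1ra* at 4.78-fold (adjusted p = 0.00156). Every treated library exceeded every untreated one for both. *C4b* measured 34.9, 30.5 and 32.5 CPM without and 131, 32.7 and 46.8 CPM with TNF and was not called (adjusted p = 0.179), its mean being raised by TNF replicate 1. In the list of cell death and survival genes 4 of 18 tested rose (median log2 0.38). These were *Casp4*, the BH3-only gene *Bid* (2.43-fold, adjusted p = 0.00259), the death receptor gene *Fas* (1.88-fold, adjusted p = 0.00283) and *Casp1* (4.59-fold, adjusted p = 0.0291), whose counts were 2, 8 and 4 without and 32, 24 and 12 with TNF. The *Casp1* call was lost without TNF replicate 1 or 2 or any one untreated library (adjusted p = 0.0701 to 0.149). Of 19 tested genes of the oxidative stress defence, *Hmox1* (2.23-fold, adjusted p = 0.0158) and *Nfe2l2* (1.38-fold, adjusted p = 0.0218) rose. Both lost their calls without TNF replicate 1 (adjusted p = 0.0949 and 0.0555), without untreated replicate 1 or 3 and, for *Hmox1*, untreated replicate 2, or, for *Nfe2l2*, TNF replicate 2.

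**Figure D3:**
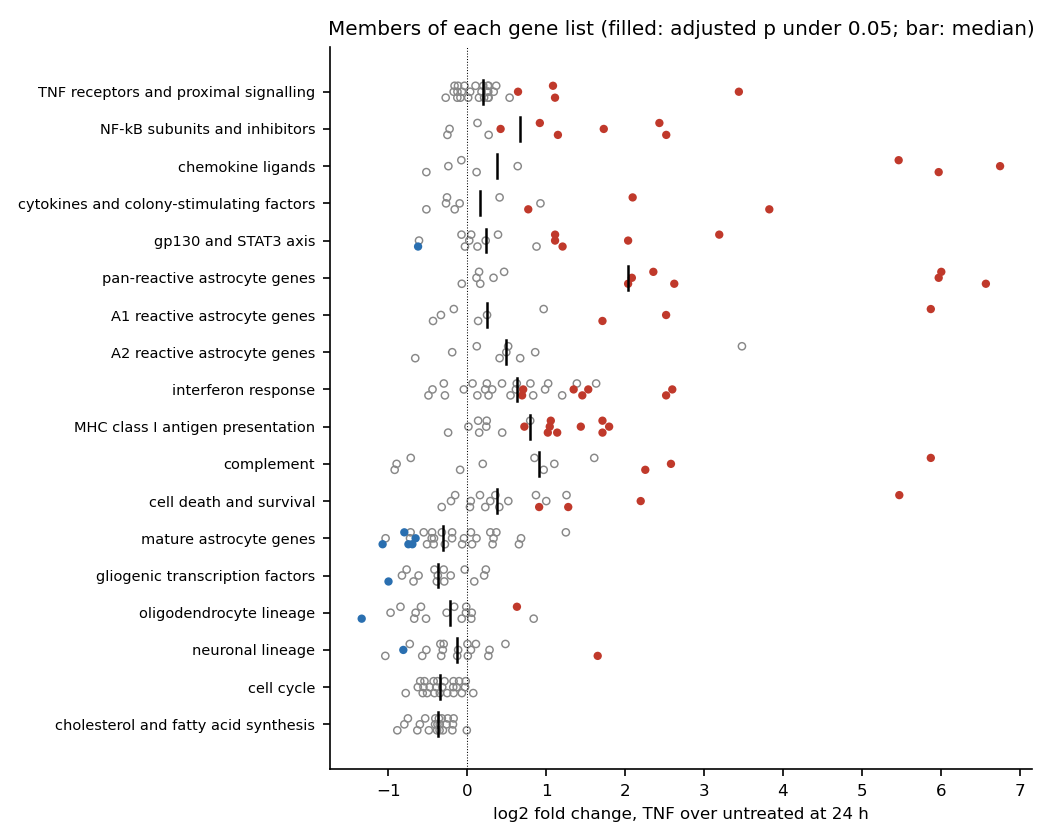
Log2 fold change (TNF over untreated, 24 h) of the tested members of 18 gene lists, 1 circle per gene, filled where the adjusted p was under 0.05, with a bar at the median. The NF-κB, pan-reactive and MHC class I lists have filled circles to the right only, the mature astrocyte list has 5 filled circles to the left only, and the cell cycle and cholesterol lists have none.

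Genes of mature astrocytes that were called were all lower. Of 30 tested, 5 fell and none rose (median log2 -0.30, and -0.54 with 4 called without TNF replicate 1). These calls depended on the libraries included, since 0 or 1 of the list were called when an untreated library was left out and 1 or 2 without TNF replicate 2 or 3. *Kcnj10*, the inward-rectifying potassium channel by which astrocytes clear potassium, had 444, 301 and 552 CPM without and 262, 186 and 170 CPM with TNF. All treated values were lower (log2 -1.07 ± 0.27, adjusted p = 0.0348), and the call was lost without untreated replicate 1 or 3 or TNF replicate 2 or 3 (adjusted p = 0.108 to 0.199). The glycolytic gene *Aldoc* went from 880, 997 and 796 CPM to 451, 598 and 653 CPM (log2 -0.65, adjusted p = 0.0417), and the growth factor receptor gene *Fgfr3* from 155, 172 and 167 CPM to 85.5, 96.3 and 124 CPM (log2 -0.69, adjusted p = 0.0238). The chloride channel gene *Ttyh1* (log2 -0.79, adjusted p = 0.0477) and the phospholipase gene *Gpld1* (log2 -0.74, adjusted p = 0.0425) were the other members. The calls of *Aldoc*, *Fgfr3* and *Gpld1* were lost without TNF replicate 1 (adjusted p = 0.151, 0.111 and 0.114), and those of these 3 and *Ttyh1* without any one untreated library and without TNF replicate 2 (adjusted p up to 0.218), as were those of *Ttyh1* and *Gpld1* without TNF replicate 3.

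For *Gfap* and *Gja1* the treated libraries did not agree. *Gfap* measured 864, 883 and 949 CPM without and 1871, 463 and 596 CPM with TNF (log2 0.12 ± 0.54, adjusted p = 0.959). TNF replicate 1 was above and the other 2 treated libraries were below all untreated ones, and without it the log2 fold change was -0.78 (adjusted p = 0.64). *Gja1*, the gap junction protein connexin 43, behaved alike, with 213, 181 and 197 CPM without and 330, 54.7 and 56.2 CPM with TNF. It was not called with all libraries (log2 -0.42 ± 0.54, adjusted p = 0.817) and was lower without TNF replicate 1 (log2 -1.85, adjusted p = 0.0247). The water channel gene *Aqp4* had 451, 428 and 385 CPM without and 1056, 478 and 459 CPM with TNF and was not called.

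**Figure D4:**
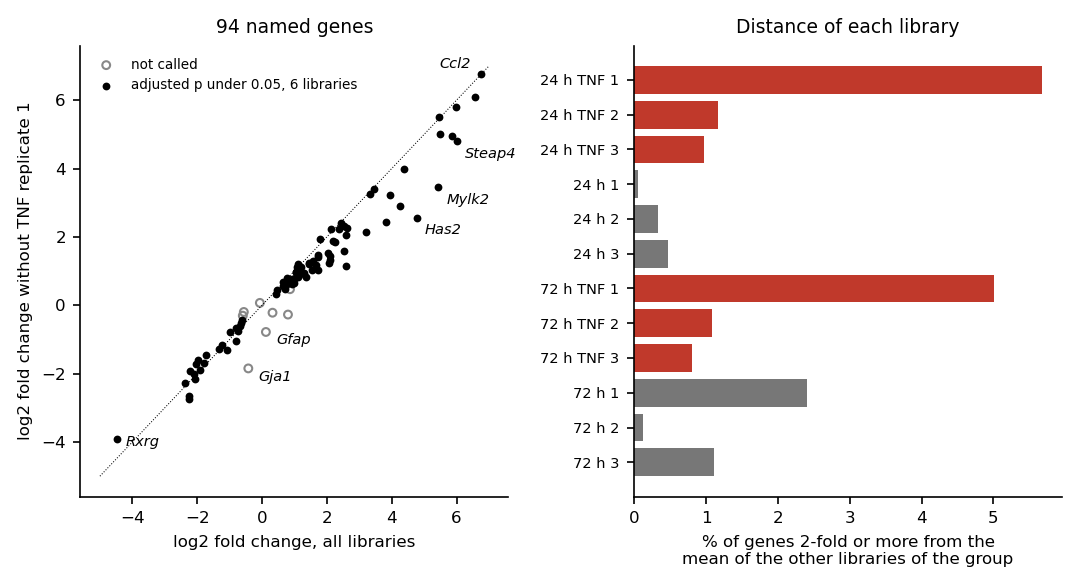
Left, log2 fold changes of 94 named genes with all 6 libraries at 24 h (x axis) and without TNF replicate 1 (y axis), with the diagonal dotted; right, the percentage of genes at least 2-fold from the mean of the other libraries of the group, for the libraries at 24 h and 72 h. *Mylk2*, *Has2* and *Gja1* lie below the diagonal, and TNF replicate 1 has the longest bar at both times (5.67% and 5.01%).

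The 12 genes with the largest decreases were mostly genes of low or moderate level. *Rxrg*, which encodes the retinoid X receptor gamma, had 30, 44 and 18 counts (2.27, 2.46 and 1.47 CPM) without and 0, 2 and 2 counts with TNF. It was nearly absent from all treated libraries, with a count ratio of 24.5 in favour of the untreated cultures (95% counting interval 9.26 to 91.9, adjusted p = 0.00201). *Ankrd34c* went from 9.82, 11.2 and 9.37 CPM to 1.64, 1.94 and 2.30 CPM (log2 -2.37 ± 0.31, adjusted p = 0.000163), and *Grm4*, a metabotropic glutamate receptor gene, from 17.8, 15.7 and 25.6 CPM to 2.02, 4.40 and 6.13 CPM (log2 -2.23 ± 0.32, adjusted p = 0.000354). The GABA-B receptor gene *Gabbr2* was even in both groups, at 15.3, 13.6 and 16.1 CPM without and 3.78, 4.47 and 3.77 CPM with TNF (log2 -1.90, adjusted p = 0.00487). The other genes of this kind that held in each fit with 1 library left out were the manganese transporter gene *Slc30a10* (log2 -2.24), the protease inhibitor gene *Pi15* (-2.24), the arginine methyltransferase gene *Prmt8* (-2.09), the inositol phosphatase gene *Inpp5j* (-2.05), the retinaldehyde dehydrogenase family gene *Aldh1a7* (-2.05) and the myosin heavy chain gene *Myh8* (-1.74). The apelin receptor gene *Aplnr* (log2 -1.98) lost its call without untreated replicate 2 (adjusted p = 0.0577), and the vesicular glutamate transporter gene *Slc17a8* (log2 -1.78) without untreated replicate 3 or TNF replicate 1 or 3 (adjusted p = 0.0578 to 0.059).

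At higher levels of expression, *Adamts9*, a protease of the extracellular matrix, fell from 167, 144 and 161 CPM to 57.3, 74.3 and 68.2 CPM (log2 -1.24 ± 0.16, adjusted p = 0.00016). It was the only one of 16 tested matrix protease and inhibitor genes called, and it was lower in every treated library. Without TNF replicate 1, 1 gene of this list was called higher and 2 were called lower. *Sox8*, a transcription factor gene of the glial lineage, was the only one called of 15 gliogenic transcription factor genes (median log2 -0.37, 12 negative). It had 84.9, 90.6 and 94.9 CPM without and 28.2, 47.1 and 59.7 CPM with TNF (log2 -1.0 ± 0.21, adjusted p = 0.00922), so that every treated library was lower. In the oligodendrocyte lineage list *Cspg5*, a proteoglycan, was 1.55-fold higher (adjusted p = 0.0267), a call lost without any one untreated library or TNF replicate 2 or 3 (adjusted p = 0.0726 to 0.126). In the neuronal list 1 of 19 rose and 1 fell. *Gad1*, an enzyme of GABA synthesis, had 4.01, 4.36 and 5.05 CPM without and 21.7, 11.1 and 9.43 CPM with TNF (3.15-fold, adjusted p = 0.000922), whereas the vesicle protein gene *Nsg2* was lower (log2 -0.81, adjusted p = 0.043) and lost its call without any one untreated library or TNF replicate 1 or 2 (adjusted p up to 0.184).

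Several lists had no call at 24 h. None of 25 tested cell cycle genes passed the test in edgeR or DESeq2 (2 were lower at an unadjusted p under 0.05), although 24 had negative log2 fold changes (median -0.34). With no filter on low counts edgeR called *Mki67* (log2 -0.59, adjusted p = 0.0085) and 1 more. Without TNF replicate 1 the median was -0.09 with 16 negative. *Mki67*, a marker of cycling cells, had 42.7, 37.6 and 42.9 CPM without and 14.4, 38.0 and 29.4 CPM with TNF, and *Ccnb1*, the mitotic cyclin, 6.05, 8.05 and 5.95 CPM without and 1.83, 7.16 and 4.84 CPM with TNF. TNF replicate 1 was the lowest library for both. The 22 genes of cholesterol and fatty acid synthesis were all negative with none called by edgeR (median log2 -0.37, 7 lower at an unadjusted p under 0.05, 2 called by DESeq2), and here too the summed level was lowest in TNF replicate 1 at 3497 CPM, against 5628 and 5805 CPM in the other treated and 6248 to 6701 CPM in the untreated libraries. The median without it was -0.05. edgeR called none of 13 neural stem cell genes (median log2 0.05), including *Egr1* (adjusted p = 0.624), of which 3 had an unadjusted p under 0.05 and DESeq2 called 1. With no filter 4 were called, among them *Egr1* (adjusted p = 0.0109), and without TNF replicate 1 there was 1 call, of another gene. The summed level of this list was 2748 CPM in TNF replicate 1, 5171 and 4897 CPM in the other treated and 4123 to 4444 CPM in the untreated libraries. It also called none of 20 genes of glycogen and glucose metabolism (median log2 -0.21), of which 4 were lower at an unadjusted p under 0.05 and DESeq2 called none. Without TNF replicate 1 edgeR called 2 of these lower, with 15 of the 20 negative. Of 15 connective tissue and contractile genes only *Col3a1* was called, and it was higher (4.34-fold, adjusted p = 0.00661, and 0.0543 without untreated replicate 2). Without TNF replicate 1 there were 2 calls, both higher, with 12 of 15 positive against 8 with it. The list summed to 1107 CPM in TNF replicate 1, 3626 and 3432 CPM in the other treated and 2486 to 2750 CPM in the untreated libraries. Of 14 receptor genes of glial signalling only *P2rx7*, an ATP-gated channel, was called, at 79.2, 75.9 and 73.8 CPM without and 144, 126 and 127 CPM with TNF (1.74-fold, adjusted p = 0.000354). Without TNF replicate 1 this list had 2 calls, both higher.

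The levels of markers of other cell types differed between types. The 16 microglia and leukocyte markers summed to 4.84 to 5.70 CPM without and to 17.8, 8.20 and 7.61 CPM with TNF, and *C1qa*, *C1qb*, *Ly86* and *Laptm5* had no count in any of the 6 libraries. The rise in the sum came from *Cd68*, a lysosomal protein gene that other cells also express, with 1.51, 1.90 and 2.53 CPM without and 15.3, 4.55 and 4.78 CPM with TNF, the only one of 4 tested that was called. It was 4.16-fold higher, and 2.33-fold without TNF replicate 1. Its adjusted p was 0.0409, and 0.106 to 0.314 without TNF replicate 1 or any one untreated library. The 10 endothelial markers summed to 5.29 to 6.03 CPM without and 5.67 to 6.49 CPM with TNF, with none of 5 tested called by edgeR (1 at an unadjusted p under 0.05) or DESeq2. The 10 mural and fibroblast markers were at 1.22 to 1.45 CPM without and at 4.98, 2.09 and 2.48 CPM with TNF. The 8 ependymal markers summed to 85.5 to 101 CPM without and 155, 95.4 and 128 CPM with TNF, and *Ccdc153*, a gene of ciliated cells, was the 1 of 6 tested that was called (1.99-fold, adjusted p = 0.0211, and 0.0571 to 0.153 without TNF replicate 1 or any one untreated library). In bulk RNA a change in the number of cells of a type and a change in RNA per cell cannot be told apart, and the part of these marker levels in the results was not tested.

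The 24 h effect was set beside that of TNF after 72 h, where the same test called 1919 genes (9.56%), 873 higher (4.35%) and 1046 lower (5.21%). Both comparisons have their own untreated cultures. Of the 703 genes called at 24 h, 422 were called in the same direction at 72 h, which is 60.0% of the 24 h genes and 22.0% of the 72 h genes, and 6 were called in opposite directions. The difference between the 2 effects was tested gene by gene and was called for 92 genes (0.458%), of which 65 had a more positive effect at 24 h and 27 a more negative one, and 29 were among the 703. The count was 27, 31 and 28 without untreated replicates 1, 2 and 3 at 24 h, 25 without untreated replicate 2 or 3 at 72 h, and 58 and 50 without TNF replicates 2 and 3 at 72 h. *Nfkbia* (log2 2.44 at 24 h and 2.80 at 72 h), *Tnfaip3* (3.44 and 3.09) and *Vcam1* (3.34 and 2.81) had effects at 72 h whose difference from those at 24 h did not pass the test (adjusted p = 0.628, 0.718 and 0.569). *Ccl2* had a log2 fold change of 6.75 at 24 h and of 1.53 ± 0.34 at 72 h. Its level with TNF was 26.0 ± 2.07 CPM at 24 h and 4.03 ± 0.313 CPM at 72 h (SD, n = 3), and the difference of the effects was 5.23 (adjusted p = 0.000255). *Lcn2* went from a log2 fold change of 6.57 to one of 1.05 that was not called (adjusted p = 0.24), while its untreated level was higher at 72 h (1.86 ± 0.136 CPM, n = 3) than at 24 h (0.109 ± 0.188 CPM). *Socs3* was higher at 24 h and had a log2 difference of -0.14 at 72 h, yet the difference of its effects was just above the threshold (adjusted p = 0.0521). The lower genes *Gabbr2* (log2 -1.90 at 24 h and -3.20 at 72 h) and *Aldoc* (-0.65 and -1.57) were called at both times without a called difference between them (adjusted p = 0.457 and 0.122). *Kcnj10* was at -1.07 and -0.83, the latter not called (adjusted p = 0.064). Of the mature astrocyte genes, 10 fell and 1 rose at 72 h, against 5 and 0 at 24 h. The NF-κB list had 5 higher genes at 72 h against 6, and the MHC class I list 7 against 9.

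**Figure D5:**
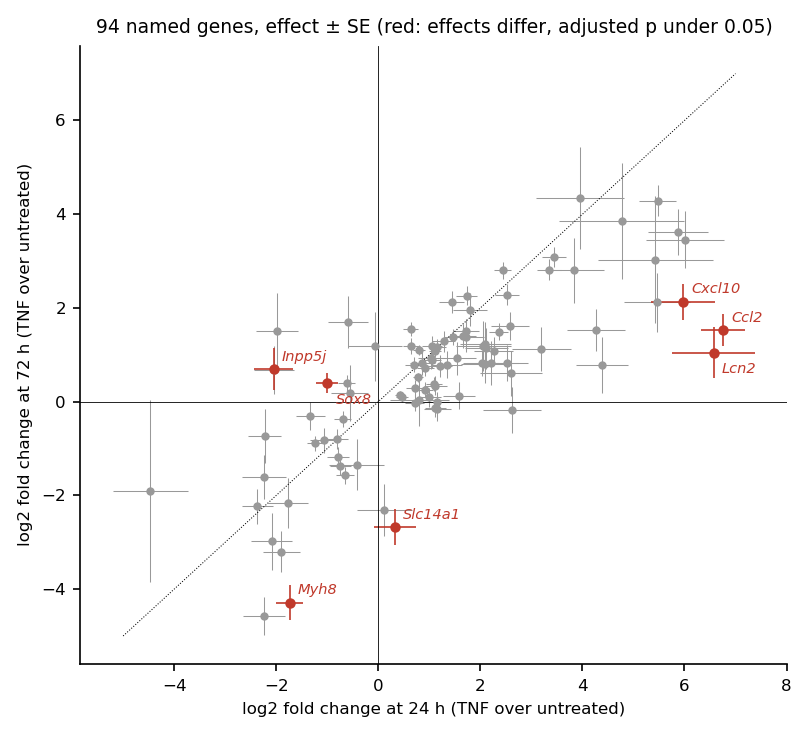
Log2 fold change of TNF over untreated at 24 h (x axis) and at 72 h (y axis) for 94 named genes, with standard errors as bars and the diagonal dotted; red marks the 7 genes whose effects differed between the times at an adjusted p under 0.05. *Ccl2*, *Cxcl10* and *Lcn2* lie far below the diagonal on the right, and *Slc14a1* and *Myh8* lie below it at the bottom.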

How the data were processed

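RNA was extracted with TRIzol and DNase (RNA quality numbers of 3.4 to 10 over the series) and sequenced after ribosomal depletion with a stranded paired-end kit. The authors trimmed reads with Trim Galore, aligned them to mm10 with STAR and counted them per gene with featureCounts, and they deposited the whole-number counts without normalization. Versions and the strand setting are not given in the sources used here. The table holds 54838 Ensembl genes, of which 54809 were named and placed with GENCODE M21. The deposited counts of all 18 libraries were fitted with edgeR 4.0.16 (R 4.3.3, TMM scaling, low counts filtered by condition, 6 condition means, quasi-likelihood F test). This left 20067 genes and 12 residual degrees of freedom, and p-values were Benjamini-Hochberg adjusted. The biological coefficient of variation was 0.1796. CPM values are TMM-scaled, fold changes are fitted values, and counting intervals are exact 95% intervals of a ratio of summed counts that cover counting error only. The fit was tested on simulated counts. Replicates differed beyond sampling noise (chi-square divided by its degrees of freedom, 8.10 to 54.6), so none was merged.

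Named genes were those the study's text names for TNF, the 12 largest changes in each direction among called genes whose groups did not overlap and whose mean CPM over the 6 libraries was 1 or more, and up to 8 called members of each list. The members and lists were chosen with earlier results of these data known. DESeq2 1.42.0, other filters and scalings, a replicate block and fits without 1 library were alternatives. Promoters were from RefSeq (GRCm38.p6), with 11888 tested and 515 called genes matched by symbol. In the untreated 72 h group 1 column carries another replicate digit than its label and was matched by its library number. Some results are not reported here.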

Additional observations from a re-analysis of the deposited data

Results flagged for a closer look

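For 7 named genes the effect of TNF at 24 h differed from that at 72 h by the test of the difference itself (edgeR, adjusted over all genes). The effect at 24 h was the more positive by 5.52 on the log2 scale for *Lcn2* (adjusted p = 0.0275), by 5.23 for *Ccl2* (adjusted p = 0.000255), by 3.84 for *Cxcl10* (adjusted p = 0.0444), by 3.01 for *Slc14a1* (adjusted p = 0.0212) and by 2.55 for *Myh8* (adjusted p = 0.019). It was the more negative for *Inpp5j* (-2.75, adjusted p = 0.0446) and for *Sox8* (-1.40, adjusted p = 0.0479). The genes differed in what lay behind this. *Ccl2* and *Cxcl10* were called higher at both times, with log2 fold changes of 1.53 and 2.13 at 72 h. *Slc14a1*, a urea transporter gene, was at 2.12, 2.12 and 2.28 CPM without and 4.35, 2.09 and 1.71 CPM with TNF at 24 h, where it was not called, and fell by 2.68 on the log2 scale at 72 h. *Myh8* fell at both times, by 1.74 and 4.29. *Inpp5j* and *Sox8* fell at 24 h only by these calls, with log2 differences of 0.69 and 0.40 at 72 h that were not called.

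Without TNF replicate 1 at 24 h the difference of the effects was still called for *Ccl2* (5.22, adjusted p = 0.000357), *Myh8* (2.81, adjusted p = 0.0014), *Sox8* (-1.18, adjusted p = 0.0473) and *Lcn2* (5.04, adjusted p = 0.0495). It was no longer called for *Cxcl10* (3.64, adjusted p = 0.068), *Slc14a1* (2.45, adjusted p = 0.0566) and *Inpp5j* (-2.86, adjusted p = 0.0624).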

How the results depend on the processing

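The number of genes called for TNF at 24 h was 703 and became 704 with RLE scaling, 929 with DESeq2, 504 with at least 10 counts in every library, 635 with only the 6 libraries at 24 h, 1374 with no filter on low counts, 373 with a log2 fold change of at least 1 and 2761 at an unadjusted p under 0.05. The fits without 1 library gave 360 to 741. The number of genes whose effects differed between 24 h and 72 h was 92 and became 244 with DESeq2, 554 with no filter and 56 with at least 10 counts, and 25 to 133 without 1 library. Fewer genes enter the stricter filter (14274) and more enter without one (37635), and fits without a library have fewer samples. The cause of the other differences was not tested.

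Replicate numbers are shared between the groups. Same-numbered libraries with and without TNF at 24 h did not all deviate together (r = 0.158, 0.235 and -0.085 across genes). Same-numbered treated libraries of 24 h and 72 h did (r = 0.354, 0.379 and 0.402), each being closest to its own number, and TNF replicate 1 stood apart at both times. Whether libraries of the same number share an animal or plating is not given in the labels and was not tested. The fit with the replicate number as a block called 650 genes at 24 h, 621 of them also called without it, and 65 genes for the difference between the times. It ended the calls of *Has2*, *Tnip1*, *Lifr*, *Irgm1* and *Ttyh1* (adjusted p = 0.0588, 0.0525, 0.0536, 0.0523 and 0.0739) and of no other named gene. The fit of only the 6 libraries ended 12 calls of named genes (*Tnip1*, *Nfkb1*, *Lif*, *Lifr*, *S1pr3*, *Gbp6*, *Irgm1*, *Casp1*, *Ttyh1*, *Aldoc*, *Cd68* and *Ccdc153*, adjusted p = 0.0516 to 0.133). The filter of 10 counts ended 4 (*Tnip1*, *Kcnj10*, *Ttyh1* and *Cd68*, 0.0534 to 0.0633), and having no filter ended 2 (*Nfkb1*, 0.132, and *Nfe2l2*, 0.063), whereas RLE scaling and DESeq2 ended none. The log2 fold change of *Gfap* was -0.024 with the block. Directions of 4 genes that were not called turned without 1 library. Over the 6 such fits the log2 fold change ranged from -0.78 to 0.45 for *Gfap*, from -0.27 to 1.17 for *Egr1*, from -0.22 to 0.58 for *Slc14a1* and from -0.55 to 0.13 for *Timp1*. *Gfap*, *Egr1* and *Slc14a1* were negative in the fit without TNF replicate 1. No named gene turned direction with RLE scaling, DESeq2, another filter or only the 6 libraries.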

Other observations

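Some called genes belong to no list above and were chosen after their values were seen. *Cebpd*, an acute-phase transcription factor gene, had 6.57, 9.34 and 9.94 CPM without and 67.1, 67.0 and 83.5 CPM with TNF (8.41-fold, adjusted p = 3.5e-08). *Junb*, a subunit of AP-1, had 6.65, 10.0 and 11.4 CPM without and 48.1, 44.6 and 57.8 CPM with TNF (5.36-fold, adjusted p = 0.00023). In both cases the groups were far apart and TNF replicate 1 did not stand out. *Tlr4*, the lipopolysaccharide receptor, went from 4.23, 3.19 and 4.07 CPM to 18.4, 17.2 and 13.6 CPM (4.29-fold, adjusted p = 7.17e-06), and *Tlr2*, the lipoprotein receptor, from 2.27, 2.35 and 1.71 CPM to 41.0, 15.2 and 17.3 CPM (11.5-fold, and 7.55-fold without TNF replicate 1).

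The collagen VI genes *Col6a1* and *Col6a2*, whose products form one microfibril, were 6.04-fold (adjusted p = 0.00119) and 5.58-fold (adjusted p = 0.00511) higher, with *Col6a1* at 26.5, 28.8 and 30.1 CPM without and 222, 132 and 163 CPM with TNF. *Spp1*, which encodes osteopontin, was higher at a low level, with 0.453, 0.503 and 0.244 CPM without and 1.45, 5.97 and 4.30 CPM with TNF (9.30-fold, adjusted p = 0.000807), and here TNF replicate 1 was the lowest treated library. *Aldh1a1*, a retinaldehyde dehydrogenase gene next to *Aldh1a7* on chromosome 19, fell from 98.5, 93.2 and 83.2 CPM to 48.7, 29.2 and 29.0 CPM (log2 -1.36, adjusted p = 0.00521).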
